A study of Rattus norvegicus with 20 samples.

Results

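The genes described here are 10 genes of the circadian clock, measured in the oesophagus of rats with reflux oesophagitis: Per1, Per2, Per3, Cry1, Nr1d1, Arntl (also called Bmal1), Clock, Npas2, Dbp and Tef. They were chosen by name with measured values of these arrays already known, so their differences between the groups are a description. Where calls of these genes are counted, the count stands beside the share of all genes called, and nothing is read from it. The array carried them as 17 probes in 45 spots, and all 10 were among the 13597 genes that passed the filter on dim probes. Each gene is represented by its brightest probe, and a level is the log2 of the processed signal minus the 75th percentile of that array, so a value of 0 means a signal equal to the 75th percentile. Levels are compared between samples for 1 gene and not between genes.

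All animals were Wistar rats, and 1 tissue sample of each of 4 animals per group went on a one-colour Agilent array. The first operated group was given STW5, a liquid combination of herbal extracts, at 2 ml/kg, and the next one STW5 at 0.5 ml/kg. A further operated group was given omeprazole, which lowers acid secretion by the stomach through its proton pump, at 30 mg/kg. In these groups treatment began 7 days before the operation that induced reflux and went on for 10 days after it. Operated rats given no drug are called untreated, and sham-operated rats are called sham. The time of day at which tissue was taken, and the age and sex of the animals, are not given in the sources used here. Whole oesophagus was analysed, so fewer cells of a type and less RNA per cell cannot be told apart.

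The clock is a transcriptional feedback loop that runs in nearly all cells. Arntl pairs with Clock or with its close relative Npas2 and binds E-boxes in the promoters of the Per, Cry, Nr1d1, Dbp and Tef genes. PER and CRY proteins then repress this pair, NR1D1 represses Arntl, and Dbp and Tef drive further genes through D-boxes. In a tissue whose clocks run together, transcripts of Arntl and Npas2 peak when those of Per genes, Nr1d1 and Dbp are low. Glucocorticoids raise Per1 and Per2 directly in many tissues.

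Promoters of 4 of the genes are shown because they carry the motifs by which the loop is usually described, and because the values of these genes are compared below. They are the 300 bases around an annotated start, most of them before it, in RefSeq's table for the rat assembly GRCr8. Capitals mark the E-box CACGTG, the related E-prime box CACGTT and the D-box TTANGTAA, each searched on both strands. They also mark AGGTNA, with N for any base, searched likewise and called the half-site here. It is looser than AGGTCA, the half-site of the elements that ROR and NR1D1 proteins bind. Among the promoters searched for these genes, only that of Arntl held AGGTCA. Of all 33469 promoters of this length, 6.42% held the E-box, 4.83% the E-prime box, 2.24% the D-box and 43.0% the half-site. The Per2 promoter lies at chr9:99496944-99497243 on the minus strand and holds an E-prime box and a D-box. The Arntl promoter lies at chr1:176766078-176766377 on the plus strand and holds 2 half-sites. Nr1d1 has 2 starts, at chr10:84231763-84232062 on the minus strand with an E-prime box and at chr10:84229405-84229704 on the minus strand with an E-box and a half-site. The Tef promoter, at chr7:115206577-115206876 on the plus strand, holds an E-box and a half-site. In the windows of Per3, Clock and Dbp none of these letters was found, and those of Per1 and Npas2 held only half-sites. For Cry1 no promoter was available, so it was not searched.
Per2: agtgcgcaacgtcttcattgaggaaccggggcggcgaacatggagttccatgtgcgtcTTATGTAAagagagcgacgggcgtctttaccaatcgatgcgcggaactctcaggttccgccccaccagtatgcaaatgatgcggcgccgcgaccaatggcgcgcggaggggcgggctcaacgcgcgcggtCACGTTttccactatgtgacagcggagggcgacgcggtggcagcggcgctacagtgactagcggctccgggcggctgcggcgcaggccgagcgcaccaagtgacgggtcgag
Arntl: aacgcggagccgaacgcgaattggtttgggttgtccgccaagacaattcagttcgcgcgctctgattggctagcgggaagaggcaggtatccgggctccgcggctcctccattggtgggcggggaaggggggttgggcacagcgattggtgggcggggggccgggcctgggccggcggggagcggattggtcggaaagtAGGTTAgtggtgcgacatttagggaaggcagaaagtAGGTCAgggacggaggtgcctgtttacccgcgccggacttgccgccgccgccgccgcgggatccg
Nr1d1 start 1: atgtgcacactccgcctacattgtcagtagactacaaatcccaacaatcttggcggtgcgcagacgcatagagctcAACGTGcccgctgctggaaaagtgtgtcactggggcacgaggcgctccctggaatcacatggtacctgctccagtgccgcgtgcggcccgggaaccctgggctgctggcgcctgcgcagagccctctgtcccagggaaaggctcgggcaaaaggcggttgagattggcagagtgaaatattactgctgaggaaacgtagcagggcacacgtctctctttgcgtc
Nr1d1 start 2: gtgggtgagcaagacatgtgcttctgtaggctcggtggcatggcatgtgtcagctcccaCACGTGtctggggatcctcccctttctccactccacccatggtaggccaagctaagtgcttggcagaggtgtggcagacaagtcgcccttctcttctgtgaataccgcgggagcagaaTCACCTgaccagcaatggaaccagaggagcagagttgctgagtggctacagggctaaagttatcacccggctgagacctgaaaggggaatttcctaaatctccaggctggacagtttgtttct
Tef: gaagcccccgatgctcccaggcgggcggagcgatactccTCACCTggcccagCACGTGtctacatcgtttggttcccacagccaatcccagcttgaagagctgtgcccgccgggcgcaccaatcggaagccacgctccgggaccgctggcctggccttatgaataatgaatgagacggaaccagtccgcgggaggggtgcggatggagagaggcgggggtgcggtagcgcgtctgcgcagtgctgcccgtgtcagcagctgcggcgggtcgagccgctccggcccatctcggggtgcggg

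On each array 61.5% to 70.5% of features stood well above background and 0 were saturated. The difference between STW5 0.5 ml/kg replicates 1 and 2 was 1.13 times the noise between spots within an array, against at least 2.63 for other pairs within a group. They were counted as 1 sample by their mean, which leaves 19 samples, and their mean is the first of the 3 values given for this group. Sham replicate 2 and omeprazole replicate 2 were the next most alike pair of arrays, at 2.11. All sham arrays lay on slide 1, untreated and STW5 0.5 ml/kg arrays on slide 2, and STW5 2 ml/kg and omeprazole arrays on slide 3, so that in all comparisons with sham, and in those of STW5 2 ml/kg or omeprazole with untreated, slide and group cannot be told apart. The dose names follow the scanner files. In the authors' value table all 8 STW5 columns hold the scanner values of the other dose, and which assignment is right is not settled by the files. Untreated replicate 3 stood apart from the other untreated samples in several clock genes. Its values are lowest of its group in Per2, Per3, Dbp and Tef and highest in Arntl, Npas2 and Cry1. In every gene 1 sample of a group is lowest and 1 highest.

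The Per genes and Cry1 encode the repressors of the loop. Among the Per genes, Per2 (GRCr8 chromosome 9, 99454828 to 99497069) had the widest differences between groups. Per2 stood at -2.35, -2.32, -1.95 and -2.26 in the STW5 2 ml/kg samples, at -1.93, -2.69 and -2.99 in the STW5 0.5 ml/kg samples and at -3.12, -3.19, -3.47 and -3.20 in the omeprazole samples. Untreated samples had -2.39, -2.83, -3.01 and -2.94, and sham samples -4.40, -3.27, -4.16 and -4.16. All samples of the 4 operated groups lay above 3 of the 4 sham samples, and sham replicate 2 lay among the omeprazole values. The mean was -2.79 ± 0.28 in untreated and -4.00 ± 0.50 in sham samples (SD, n = 4 each), a difference of 1.20 ± 0.24 (SE), and of 1.45 without sham replicate 2. STW5 2 ml/kg differed from untreated by 0.57 ± 0.24 and from omeprazole by 1.02 ± 0.24, in both cases with no overlap of samples. Omeprazole samples were all below untreated ones, by -0.45 ± 0.24, and STW5 0.5 ml/kg samples overlapped with untreated ones (0.25 ± 0.26). The group means thus ran, from low to high, sham, omeprazole, untreated, STW5 0.5 ml/kg and STW5 2 ml/kg, where STW5 0.5 ml/kg overlapped with both of its neighbours and omeprazole with sham. With normexp background correction, which draws dim signals together, the difference of untreated from sham was 0.42 and that of STW5 2 ml/kg from omeprazole 0.62.

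**Figure D1:**
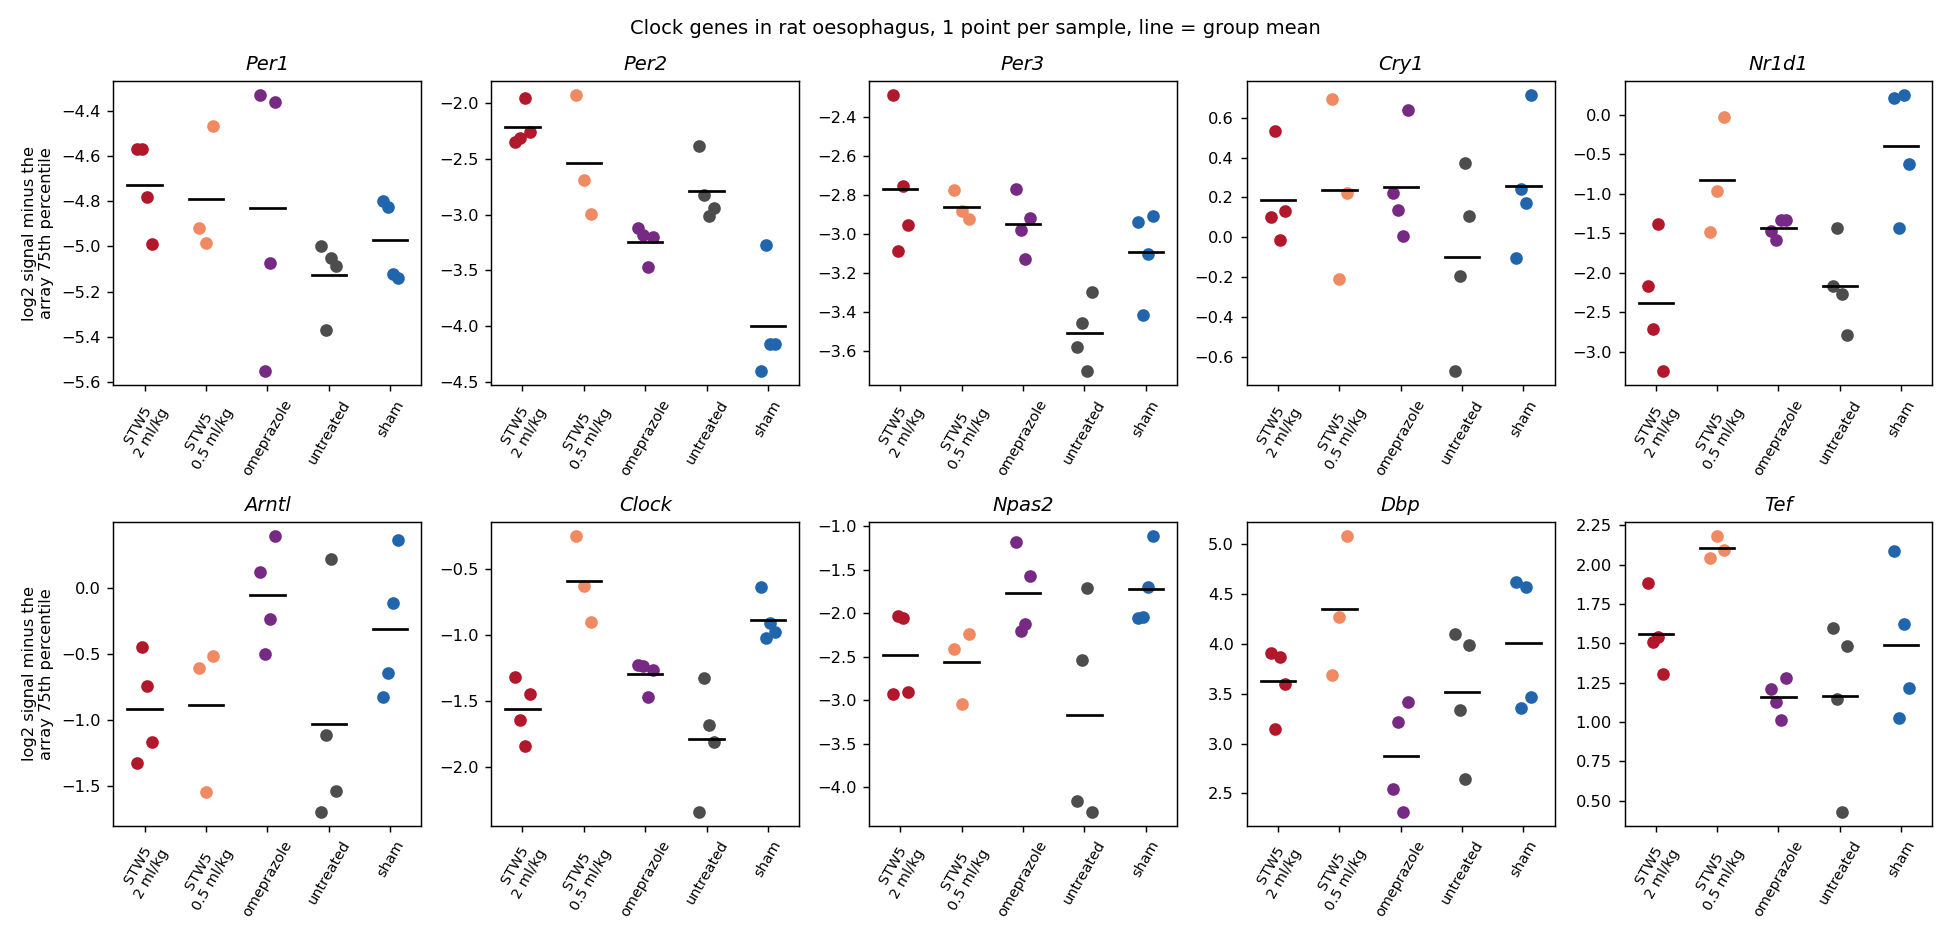
Levels of the 10 clock genes in the 19 samples (log2 signal minus the array's 75th percentile, vertical axes scaled per gene), 1 point per sample, with a line at each group mean. Per2 is lowest in 3 of the 4 sham samples, and untreated replicate 3 is the untreated point at 0.22 for Arntl, 2.64 for Dbp and 0.43 for Tef.

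Per3 (GRCr8 chromosome 5, 166740914 to 166778243), a Per gene that mice can lose with little effect on their rhythm, was lowest in the untreated group. The STW5 2 ml/kg samples held Per3 at -2.29, -3.09, -2.76 and -2.96, the STW5 0.5 ml/kg samples at -2.77, -2.88 and -2.93 and the omeprazole samples at -2.77, -2.98, -3.13 and -2.92. In untreated samples Per3 was at -3.58, -3.46, -3.70 and -3.30, and in sham samples at -2.94, -3.41, -3.10 and -2.91. Samples of all 3 drug groups lay above all untreated samples, whereas the sham values ran into the untreated range through replicate 2. The difference from untreated was 0.74 ± 0.17 for STW5 2 ml/kg, 0.65 ± 0.18 for STW5 0.5 ml/kg and 0.56 ± 0.17 for omeprazole. Untreated differed from sham by -0.42 ± 0.17. Other Per3 probes were dimmer and gave differences of the same sign in these 4 comparisons. Their deviations from the group means followed those of the brightest probe hardly at all (Pearson's r of 0.27 and 0.01 over 19 samples).

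Per1 (GRCr8 chromosome 10, 54299002 to 54313804), a Per gene that glucocorticoids induce directly, was close to background. Its only probe was well above background on 4 STW5 2 ml/kg, 2 STW5 0.5 ml/kg, 3 omeprazole, 2 untreated and 1 sham arrays. Per1 values were -4.57, -4.57, -4.78 and -4.99 with STW5 2 ml/kg, -4.92, -4.99 and -4.47 with STW5 0.5 ml/kg and -4.33, -5.55, -5.07 and -4.36 with omeprazole. The untreated values of Per1 were -5.00, -5.37, -5.05 and -5.09, and the sham values -4.80, -4.82, -5.12 and -5.14. Group means spanned 0.40, against a pooled SD of 0.33 within groups, and only both STW5 groups lay without overlap above the untreated samples. With normexp correction the differences of STW5 2 ml/kg and omeprazole from untreated turned to -0.08 and -0.12, so no order of the groups is read from Per1.

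Cry1 (GRCr8 chromosome 7, 20417526 to 20481791), whose protein closes the loop together with the PER proteins, differed little between groups. With STW5 2 ml/kg the Cry1 values were 0.10, 0.53, -0.01 and 0.13, with STW5 0.5 ml/kg 0.70, -0.21 and 0.22 and with omeprazole 0.22, 0.14, 0.01 and 0.64. Untreated samples had -0.67, -0.19, 0.37 and 0.11, and sham samples -0.10, 0.24, 0.17 and 0.71. Every group overlapped with every other one. The group means spanned 0.35 and the pooled SD within groups was 0.35. Untreated samples had the lowest mean, -0.35 ± 0.24 from sham.

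Nr1d1 (GRCr8 chromosome 10, 84224599 to 84231812) encodes REV-ERB alpha, the nuclear receptor that represses Arntl. Nr1d1 stood at -2.17, -2.72, -1.38 and -3.25 in the STW5 2 ml/kg samples, at -1.49, -0.97 and -0.03 in the STW5 0.5 ml/kg samples and at -1.47, -1.59, -1.33 and -1.33 in the omeprazole samples. Untreated samples had -2.17, -1.44, -2.27 and -2.79, and sham samples 0.21, -1.44, 0.25 and -0.62. It had the widest span of group means of the 10 genes, 1.98 between STW5 2 ml/kg and sham. The untreated mean was -2.17 ± 0.56 and the sham mean -0.40 ± 0.80 (SD, n = 4 each), a difference of -1.77 ± 0.43. The untreated and the sham sample numbered 2 met at -1.44, and without this sham sample the difference was -2.11. The difference of STW5 2 ml/kg from sham was -1.98 ± 0.43 and from untreated -0.21 ± 0.43. STW5 0.5 ml/kg lay 1.34 ± 0.46 above untreated, with 1 overlapping untreated sample, and omeprazole 0.74 ± 0.43. Omeprazole samples were the tightest of the 5 groups, with an SD of 0.13.

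Arntl (GRCr8 chromosome 1, 176766222 to 176864741) encodes the activator without which the loop stops in mice. The STW5 2 ml/kg samples held Arntl at -1.32, -0.45, -0.74 and -1.16, the STW5 0.5 ml/kg samples at -0.61, -1.54 and -0.51 and the omeprazole samples at 0.12, -0.50, -0.24 and 0.39. In untreated samples Arntl was at -1.69, -1.11, 0.22 and -1.53, and in sham samples at -0.83, -0.65, -0.12 and 0.36. The untreated group held both the lowest value and, in replicate 3, a value above 3 of the 4 sham samples. Its mean was -1.03 ± 0.87, against -0.31 ± 0.54 in sham (SD, n = 4 each), a difference of -0.72 ± 0.38, and of -1.14 without untreated replicate 3. Omeprazole samples had the highest mean and lay 0.97 ± 0.38 above untreated ones, or 1.39 without that replicate. STW5 2 ml/kg and STW5 0.5 ml/kg samples differed from untreated by 0.11 ± 0.38 and 0.14 ± 0.42, both smaller than their standard errors, and by 0.53 and 0.56 without untreated replicate 3. Every STW5 2 ml/kg value was below 3 of the 4 omeprazole values, and the difference was -0.86 ± 0.38. A dimmer Arntl probe, well above background on 17 of 20 arrays, followed the brightest within groups (r = 0.74) and gave differences of -0.60, 1.16 and -1.65 for untreated against sham, omeprazole against untreated and STW5 2 ml/kg against omeprazole.

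Clock (GRCr8 chromosome 14, 32262747 to 32346872), the usual partner of Arntl, separated the groups most cleanly of the activators. Clock values were -1.32, -1.64, -1.84 and -1.45 with STW5 2 ml/kg, -0.25, -0.63 and -0.90 with STW5 0.5 ml/kg and -1.22, -1.24, -1.47 and -1.26 with omeprazole. The untreated values of Clock were -2.34, -1.32, -1.68 and -1.81, and the sham values -0.64, -1.02, -0.91 and -0.98. All untreated samples were below all sham samples, and all STW5 0.5 ml/kg samples were above all untreated ones. The untreated mean was -1.79 ± 0.42 and the sham mean -0.89 ± 0.17 (SD, n = 4 each). Untreated differed from sham by -0.90 ± 0.20, a fold of 0.535, and STW5 0.5 ml/kg from untreated by 1.20 ± 0.21, a fold of 2.29. Overlap with untreated was found for STW5 2 ml/kg and omeprazole, at 0.23 ± 0.20 and 0.49 ± 0.20. STW5 2 ml/kg samples were all below the sham samples (-0.68 ± 0.20).

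Npas2 (GRCr8 chromosome 9, 48959225 to 49138036), which can replace Clock beside Arntl, was the most variable gene within the untreated group. With STW5 2 ml/kg the Npas2 values were -2.93, -2.03, -2.05 and -2.90, with STW5 0.5 ml/kg -2.41, -3.04 and -2.23 and with omeprazole -1.19, -2.20, -2.12 and -1.57. Untreated samples had -4.15, -2.54, -1.71 and -4.28, and sham samples -2.05, -2.04, -1.69 and -1.11. Untreated replicates 1 and 4 lay far below all other samples, while replicate 3 lay among the sham values. The untreated mean of -3.17 ± 1.26 stood against -1.72 ± 0.44 in sham (SD, n = 4 each), a difference of -1.45 ± 0.47, and of -1.93 without untreated replicate 3. Omeprazole lay 1.40 ± 0.47 above untreated, 1.89 without it. The differences of STW5 2 ml/kg and STW5 0.5 ml/kg from untreated, 0.69 ± 0.47 and 0.61 ± 0.51, were 1.18 and 1.09 without it. These values rest on 1 probe: the other Npas2 probe, well above background on all 20 arrays, gave -0.14 for untreated against sham and -0.04 for omeprazole against untreated. Within groups the 2 probes ran against each other (r = -0.50), and which of them follows the transcript was not tested.

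Dbp (GRCr8 chromosome 1, 105312256 to 105317205), a D-box activator whose transcript is among the most strongly rhythmic known in mammals, overlapped between nearly all groups. Dbp stood at 3.90, 3.15, 3.87 and 3.60 in the STW5 2 ml/kg samples, at 3.69, 4.27 and 5.08 in the STW5 0.5 ml/kg samples and at 2.54, 3.21, 2.32 and 3.42 in the omeprazole samples. Untreated samples had 4.10, 3.34, 2.64 and 3.99, and sham samples 4.61, 3.36, 4.57 and 3.47. Sham samples fell into a higher and a lower pair, and untreated replicate 3 lay below the other untreated samples. Untreated differed from sham by -0.49 ± 0.39, which shrank to -0.19 without untreated replicate 3. STW5 0.5 ml/kg lay 0.83 ± 0.42 above untreated and omeprazole -0.65 ± 0.39 from it, in both cases with overlap of the samples. Without untreated replicate 3 the first of these was 0.54. STW5 2 ml/kg differed from untreated by 0.11 ± 0.39, or by -0.18 without that replicate, and from omeprazole by 0.76 ± 0.39. The 3 Dbp probes moved together within groups, with r of 0.99 and 0.96 to the brightest one.

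Tef (GRCr8 chromosome 7, 115197180 to 115221930), a relative of Dbp with the same D-box target, had its highest mean and its smallest spread with STW5 0.5 ml/kg. The STW5 2 ml/kg samples held Tef at 1.88, 1.51, 1.54 and 1.31, the STW5 0.5 ml/kg samples at 2.04, 2.18 and 2.09 and the omeprazole samples at 1.21, 1.13, 1.01 and 1.28. In untreated samples Tef was at 1.59, 1.15, 0.43 and 1.48, and in sham samples at 2.09, 1.03, 1.62 and 1.22. All STW5 0.5 ml/kg samples lay above all untreated samples, and all STW5 2 ml/kg samples above all omeprazole samples. STW5 0.5 ml/kg averaged 2.11 ± 0.07 (SD, n = 3) and untreated 1.16 ± 0.52 (SD, n = 4), a difference of 0.94 ± 0.26, and of 0.70 without untreated replicate 3. STW5 2 ml/kg differed from omeprazole by 0.40 ± 0.24 and from untreated by 0.40 ± 0.24. Without that replicate the difference from untreated was 0.15. Untreated differed from sham by -0.33 ± 0.24, and by -0.08 without untreated replicate 3.

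Set side by side, untreated oesophagitis differed from sham in the same direction for most of the loop. Per2 was the only one of the 10 genes with a higher mean in untreated samples, and the other 9 had a lower one, and none of the 10 changed sign under any alternative processing or without any 1 sample. Over all genes 55.8% had a lower mean in untreated than in sham samples. The median difference of the 10 genes was -0.45, against -0.08 over all 13597 genes. By limma's moderated test with Benjamini-Hochberg adjustment over all genes, at an adjusted p under 0.05, 1 of the 10 was called higher (Per2) and 3 lower (Clock, Npas2 and Nr1d1), where 32.8% of all genes were called in either direction, 15% higher and 17.8% lower. The Npas2 call held in 15 of 20 settings, which are the processing reported here, its alternatives and the fits without 1 sample. Without overlap of samples Per2 was higher and Clock lower, where 12% and 12.2% of all genes were. Per genes and activators did not stand on opposite sides as sets: Per2 stood against Arntl, Clock and Npas2, but Per3 (-0.42 ± 0.17) had the sign of the activators. Per1 had it too (-0.16 ± 0.23), but is close to background and differed by less than its standard error. Nr1d1, usually counted with the Per genes in phase, had the sign of the activators as well.

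With STW5 0.5 ml/kg all 10 means were above those of untreated samples, where 58.7% of all genes were. The median difference was 0.63, against 0.15 over all genes. Higher were called Per3, Nr1d1, Clock and Tef and lower 0, where 36.6% of all genes were called, 20.4% higher and 16.2% lower. The Nr1d1 call held in 11 of 19 settings. Per1, Per3, Clock and Tef were higher with no overlap of samples and 0 genes lower, where 20.7% and 15.8% of all genes were. For Per1 this rests on the mean of replicates 1 and 2, which stood at -5.41 and -4.43, the first of them below every untreated sample. These arrays shared a slide. The Per genes and the activators had the same sign here, although that of Arntl turned (to -0.08 at the lowest) without any 1 of 3 samples and that of Per2 (to -0.05) without 1. Against sham, where limma called 0 of all genes (at an unadjusted p under 0.05, 2 of the 10 genes were higher and 0 lower, where 3.99% and 3.66% of all genes were), 4 of the 10 means were lower, as were 43.6% of all, among them Npas2 and Arntl, and Per2 stood at 1.46 ± 0.26.

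With STW5 2 ml/kg 9 of the 10 means were above untreated and that of Nr1d1 below it, while 46.7% of all genes were above. The median was 0.34, against -0.04 over all genes. Per3 alone was called, higher, where 9.52% of all genes were called, 4.37% higher and 5.16% lower. The 3 Per genes, of which Per1 is close to background and turned to -0.08 with normexp, had no overlap with untreated samples and were higher, as 8.2% of all genes were, and 0 of the 10 were lower in this way, against 9.42%. The activators differed from untreated by less than 1.5 standard errors each, and the sign of Arntl turned with the mean of its probes (-0.19) and without any 1 of 3 samples.

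With omeprazole 7 of the 10 means were above untreated and those of Per2, Dbp and Tef below it, where 49.9% of all genes were above. The median was 0.42, against 0.00 over all genes. Npas2 and Per3 were called higher and 0 lower, where 26.9% of all genes were called, 11.9% higher and 15% lower. These calls of Npas2 and Per3 held in 13 and 11 of 20 settings. Without overlap Per3 was higher and Per2 lower, where 11% and 15.8% of all genes were. Per2 and Arntl had opposite signs in this comparison, -0.45 ± 0.24 and 0.97 ± 0.38, while Per3 had that of Arntl. All comparisons with untreated samples share the same 4 arrays of that group.

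**Figure D2:**
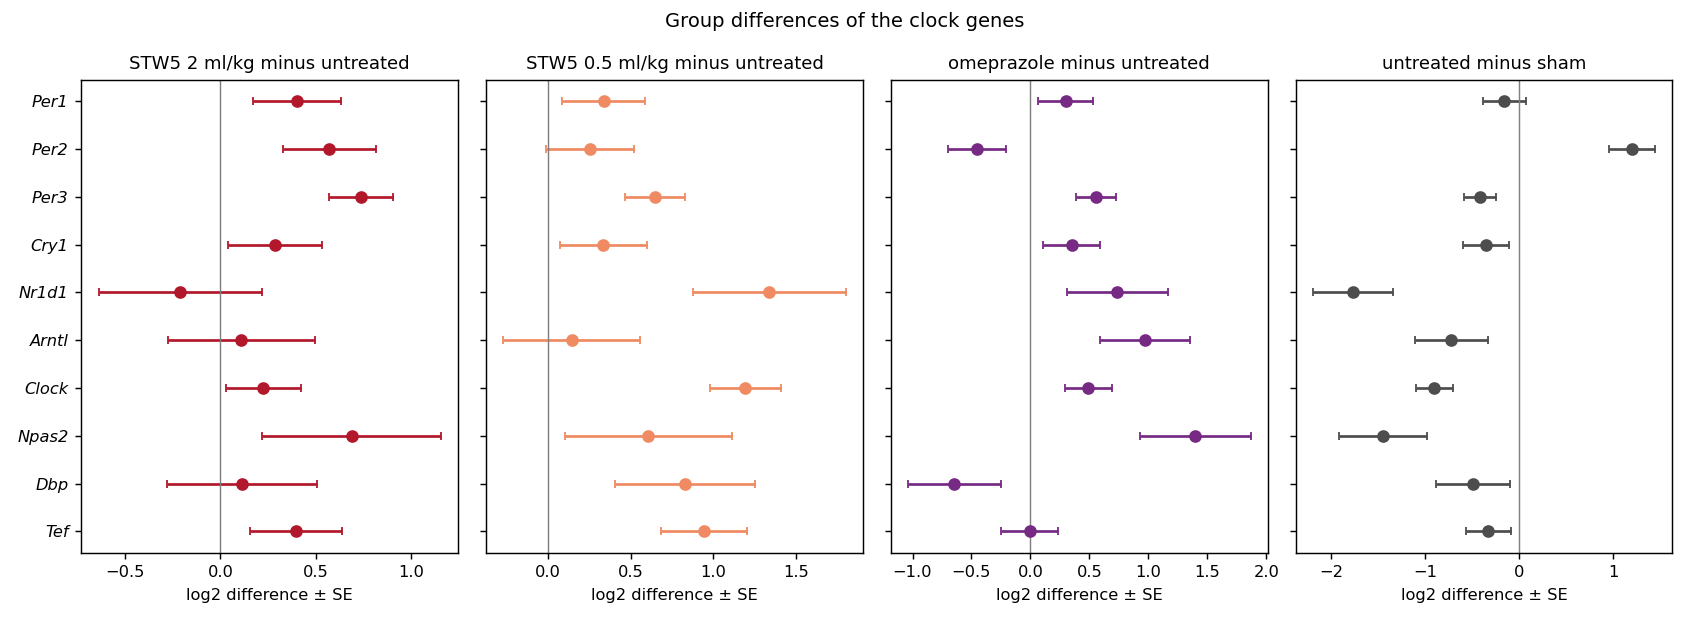
Log2 differences of the 10 clock genes with their standard errors (horizontal axes) in 4 comparisons, 1 panel each, for STW5 2 ml/kg, STW5 0.5 ml/kg and omeprazole against untreated and for untreated against sham. Per2 at 1.20 is the only gene right of 0 in untreated against sham, and all 10 lie right of 0 with STW5 0.5 ml/kg.

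Of all group pairs, all 3 Per genes stood opposite all 3 activators only in STW5 2 ml/kg against omeprazole and against sham. Arrays of the first pair shared a slide, and those of the second did not. Of all genes 49.4% had a lower mean with STW5 2 ml/kg than with omeprazole, and 61% a lower one than in sham samples. Against sham, Per1, Per2 and Per3 differed by 0.24 ± 0.23, 1.78 ± 0.24 and 0.32 ± 0.17, and Arntl, Clock and Npas2 by -0.61 ± 0.38, -0.68 ± 0.20 and -0.76 ± 0.47. Nr1d1 (-1.98 ± 0.43), Dbp (-0.37 ± 0.39) and Cry1 (-0.07 ± 0.24) had the sign of the activators there, and Tef (0.07 ± 0.24) that of the Per genes. Against omeprazole, Per1, Per2 and Per3 differed by 0.10 ± 0.23, 1.02 ± 0.24 and 0.18 ± 0.17, and the D-box genes Dbp and Tef by 0.76 ± 0.39 and 0.40 ± 0.24. Arntl, Clock and Npas2 differed by -0.86 ± 0.38, -0.27 ± 0.20 and -0.71 ± 0.47, and Nr1d1, which is not on the side of the Per genes, by -0.95 ± 0.43. Of these, Per2 and Tef had no overlap between the groups and were higher, where 10.3% of all genes had none and were higher, and 0 were lower in this way, against 7.54%. By limma 0 of the 10 genes were called (at an unadjusted p under 0.05, 1 was higher and 2 were lower, where 9.15% and 7.81% of all genes were), and 0.287% of all genes were, 0.265% higher and 0.0221% lower. Against omeprazole the sides of Per1 and Per3 are uncertain, since Per1 turned to -0.07 with dim signals raised and Per3 to -0.12 with the mean of its probes. With the value table's columns, where the doses are exchanged, Nr1d1 turned to 0.73 and Clock to 0.83 in this comparison. Alternatives were not run for STW5 2 ml/kg against sham, and the sides of Per1 and Per3 are uncertain there as well. With normexp Per1 was at -0.08 in STW5 2 ml/kg against untreated, and untreated was below sham. Dimmer Per3 probes gave 0.67 and 0.18 for STW5 2 ml/kg against untreated, and -0.81 and -0.55 for untreated against sham.

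Within groups, samples can be compared without the differences between groups, by the deviation of each sample from its group mean. These correlations are descriptions over 19 samples that share slides and scaling. Arntl and Npas2 deviated together, with Pearson's r of 0.89 and Spearman's rho of 0.84, an r between 0.84 and 0.93 when any 1 sample was left out, and a positive r in 5 of 5 groups. All values of Npas2 here rest on its brightest probe, against which its other probe ran within groups (r = -0.50). Arntl and Cry1 did so at r = 0.77 and rho = 0.77, again positive in 5 of 5 groups. Dbp and Tef also deviated together, at r = 0.76 and rho = 0.80, positive in 5 of 5 groups. For Dbp and Nr1d1 r was 0.50, positive in 3 of 5 groups and negative in 2. Between Arntl, Npas2 and Cry1 on one side and Dbp and Tef on the other r was negative, as in -0.61 for Arntl and Tef, -0.43 for Arntl and Dbp, -0.48 for Npas2 and Dbp and -0.45 for Cry1 and Dbp. Nr1d1 did not share this, with 0.11 to Arntl, 0.28 to Npas2 and -0.35 to Cry1. The negative values rest in part on few samples. For Arntl and Dbp r was -0.25 without untreated replicate 3, -0.15 without it and sham replicate 4, and negative in 3 of 5 groups. For Arntl and Tef it was -0.41 at the weakest with 1 sample left out, and -0.33 without those 2 samples.

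**Figure D3:**
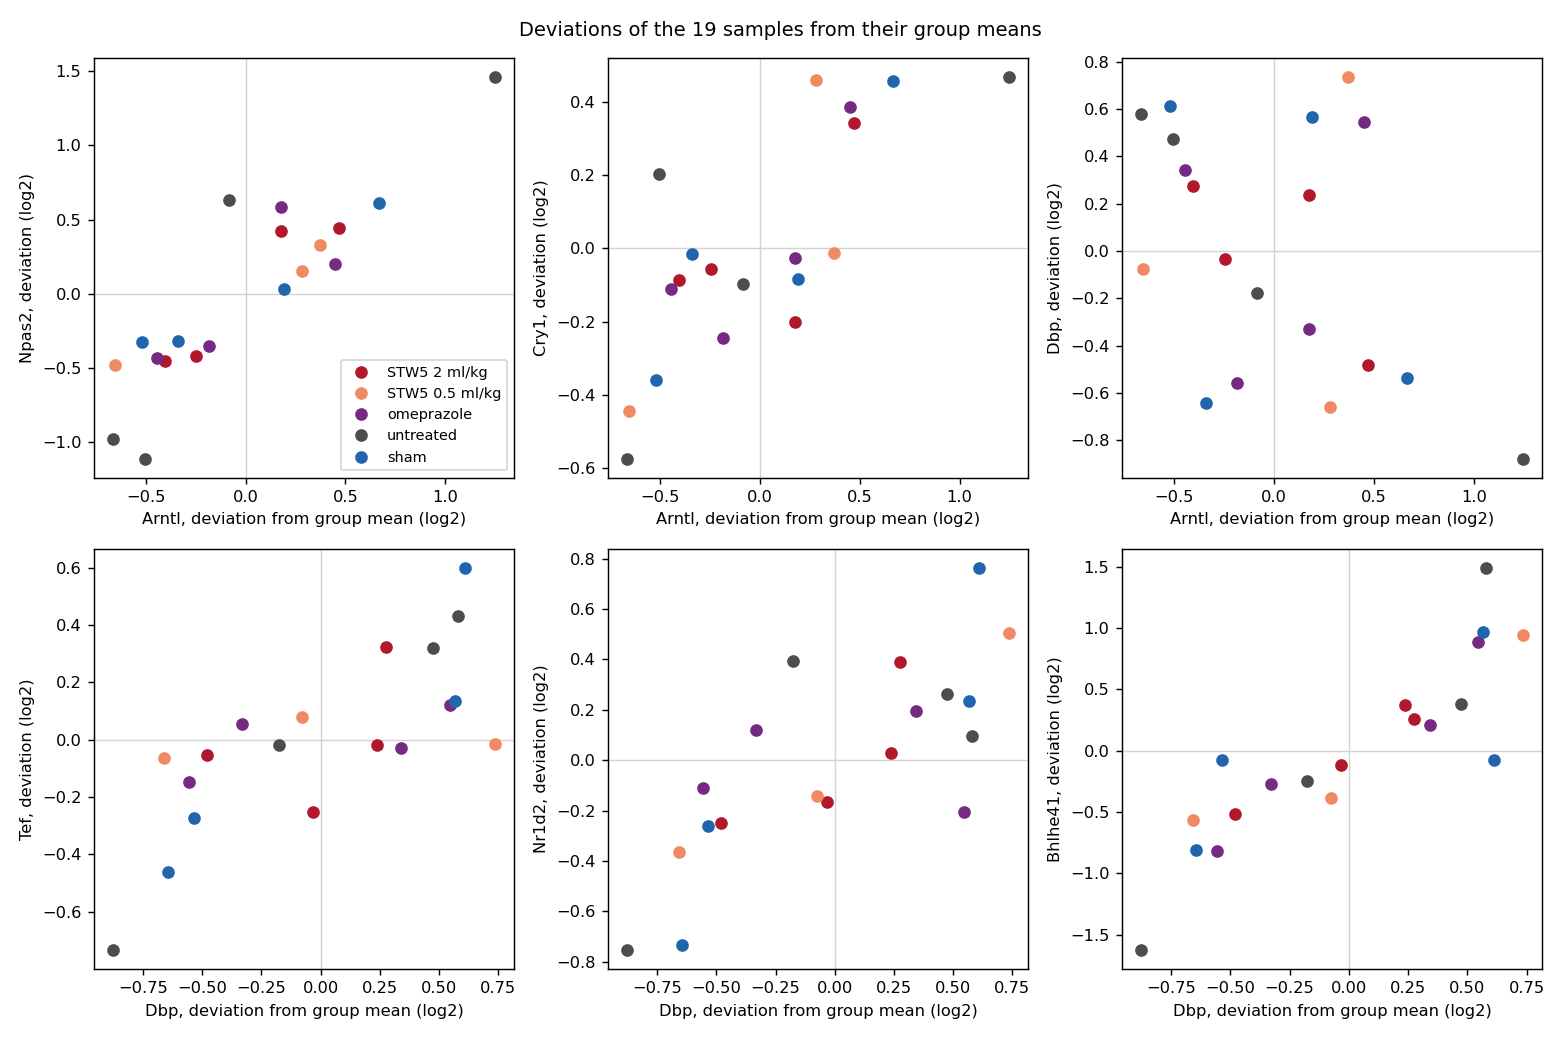
Deviations of 19 samples from their group means (log2) for 6 pairs of genes, coloured by group. Arntl rises with Npas2 (r = 0.89) and Cry1 (r = 0.77) and falls with Dbp (r = -0.43), where untreated replicate 3 is the point at the lower right, and Dbp rises with Tef (r = 0.76), Nr1d2 (r = 0.76) and Bhlhe41 (r = 0.88).

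The Per genes took little part in these patterns. Against Arntl r was 0.25 for Per1, -0.15 for Per2 and -0.19 for Per3, and between Per1, Per2 and Per3 it lay between -0.19 and 0.13. Per3 deviated with Tef (r = 0.57), its closest relation among the 10 genes. Per2 had its closest relation with Nr1d1, a negative one (r = -0.45). It was -0.28 without sham replicate 2, and negative in 3 of 5 groups. Without that sample and the mean of STW5 0.5 ml/kg replicates 1 and 2 it was -0.09. Clock, in contrast to Npas2, did not follow Arntl (r = 0.07), each gene by its brightest probe. The other Clock probe hardly followed the one used here (r = 0.12).

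**Figure D4:**
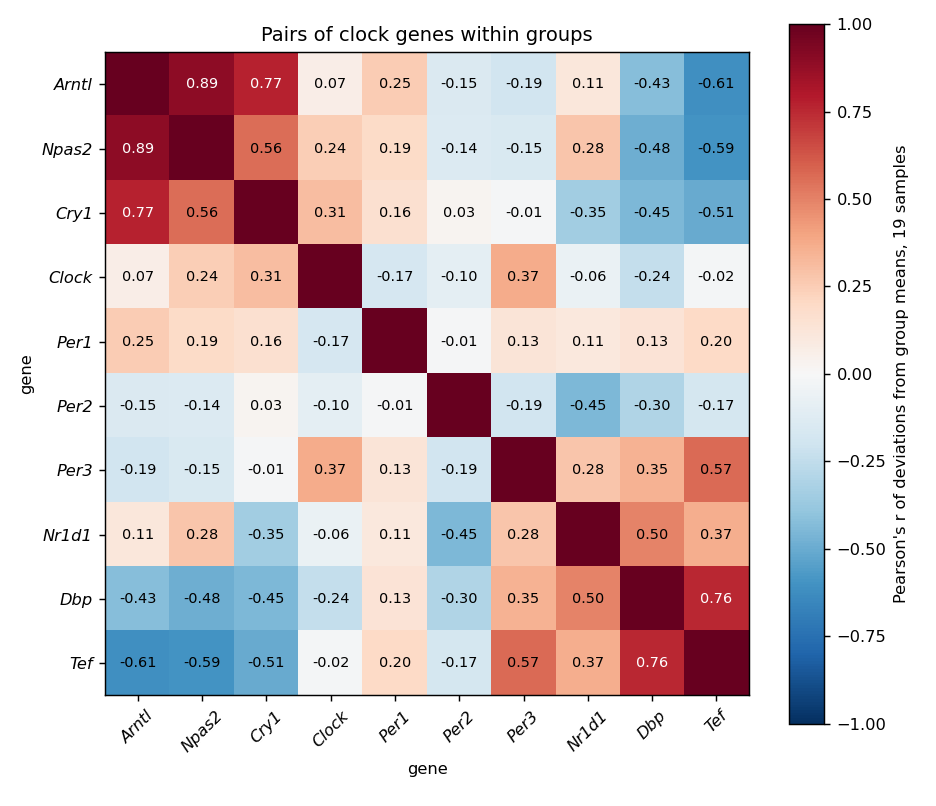
Pearson's r of the deviations from group means over 19 samples for all pairs of the 10 clock genes, written in each cell and coloured from -1 (blue) to 1 (red). Arntl, Npas2 and Cry1 form a positive block (0.56 to 0.89), and Arntl, Npas2 and Cry1 have r between -0.61 and -0.43 with Dbp and Tef. Each gene is shown by its brightest probe, and the other Npas2 probe ran against the one shown.

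Among the 12731 genes with an established symbol, those closest to Arntl by r of deviations were Il17re (0.90), Npas2 (0.89), Rrp7a (0.87), Hdc (0.86), Xirp1 (0.86) and Csrp3 (0.86), so that Npas2 ranked 2 and Cry1 53. The rank of Npas2 is that of its brightest probe only. At the negative end stood Pard6a (-0.91), Yme1l1 (-0.90), C20h6orf15 (-0.88), Dusp19 (-0.88), Spmip11 (-0.87) and Pdzd11 (-0.86). For scale, the r to Arntl of 0.64 in size was exceeded by 1 in 20 of all genes. Closest to Dbp was Bhlhe41 (0.88), which encodes the clock repressor DEC2, followed by Gprin3 (0.80), Flcn (0.78), Vps8 (0.78), Coil (0.76) and Mmp27 (0.76). Nr1d2, the gene of REV-ERB beta, ranked 7 (0.76) and Tef 9. Opposite to Dbp stood Rrs1 (-0.83), Cnot2 (-0.80), Slc38a1 (-0.80), Fst (-0.80), Col8a1 (-0.77) and Pinx1 (-0.75), where 1 in 20 of all genes exceeded 0.53 in size. Nfil3, whose protein E4BP4 represses the D-box genes that Dbp activates, deviated with Arntl (r = 0.70, positive in 5 of 5 groups, and 0.52 without untreated replicate 3) and against Dbp (r = -0.55).

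Further clock genes were taken from a list of 24, made up of loop and nuclear receptor genes, D-box factors, kinases and ubiquitin ligases of the clock, and rhythmic outputs. Of these 19 were measured. Rorb, Ciart and Hlf were on the array but did not pass the filter on dim probes, and no probe was named Fbxl21. In untreated against sham samples 2 of the 19 rose and 2 fell, where 32.8% of all genes were called. Nfil3 rose by 2.12 ± 0.46 (SE, adjusted p = 0.00282 by limma, n = 4 and 4), with values of -0.34, -1.13, 1.67 and 0.04 in untreated and -2.95, -1.53, -2.61 and -1.15 in sham samples, which did not overlap. Tspan4, a tetraspanin gene listed as a rhythmic output, rose by 1.71 ± 0.21 (adjusted p = 0.000169). Nr1d2 fell by 1.08 ± 0.30 (adjusted p = 0.0121), the direction of its relative Nr1d1. Nr1d2 stood at -3.27, -2.98, -4.12 and -3.11 in untreated and at -1.53, -3.03, -2.06 and -2.55 in sham samples, where the groups overlapped through sham replicate 2. The median of the 19 genes was -0.11, against -0.08 over all genes. Without untreated replicate 3, 7 genes were called in place of 4.

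With STW5 0.5 ml/kg 6 of the 19 rose and 2 fell against untreated, where 36.6% of all genes were called, and Nfil3, Tspan4 and Nr1d2 had the opposite sign to that in untreated against sham. Nfil3 fell by 2.43 ± 0.50 (adjusted p = 0.00145) and Tspan4 by 1.82 ± 0.23 (adjusted p = 0.000156). Nr1d2 rose by 1.12 ± 0.33 (adjusted p = 0.0135) and Rora, which activates Arntl through the element that NR1D1 shares, by 1.07 ± 0.39 (adjusted p = 0.0406). Csnk1e, the gene of a kinase that phosphorylates PER proteins, rose by 0.72 ± 0.22 (adjusted p = 0.0181). Usp2 rose by 0.69 ± 0.26 (adjusted p = 0.0473) and Gsk3b by 0.54 ± 0.16 (adjusted p = 0.0153). The calls of Usp2 and Rora held in 10 and 12 of 19 settings, and Usp2 was at 0.42 without untreated replicate 1 (adjusted p = 0.146). The median was 0.34, against 0.15 over all genes. Without untreated replicate 3, 11 genes were called in place of 8, and without STW5 0.5 ml/kg replicate 3, or replicates 1 and 2, 5 were.

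With STW5 2 ml/kg 1 of the 19 was called, Tspan4, which fell by 1.08 ± 0.21 (adjusted p = 0.0056), and 9.52% of all genes were called. Without untreated replicate 2, 2 genes were called. Nfil3 was at -1.09 ± 0.46, or at -0.55 without untreated replicate 3, and Nr1d2 at 0.43 ± 0.30 (adjusted p = 0.135 and 0.369). With omeprazole Rora rose by 1.29 ± 0.36 (adjusted p = 0.0152), Tspan4 fell by 1.95 ± 0.21 and Nfil3 by 1.31 ± 0.46 (adjusted p = 1.27e-05 and 0.044), where 26.9% of all genes were called. The Nfil3 call held in 10 of 20 settings, and its difference was -0.78 without untreated replicate 3 (adjusted p = 0.147). Nr1d2 was at -0.06 ± 0.30 and Bhlhe41 at -1.38 ± 0.55 (adjusted p = 0.897 and 0.0746). Cry2, the other cryptochrome gene, lay between -0.26 and 0.35 and Bhlhe40 between -0.38 and 0.48 in these 4 comparisons, and neither was called in any. Between STW5 2 ml/kg and omeprazole 0 of the 19 were called by limma (at an unadjusted p under 0.05, 1 was higher and 1 was lower, against 9.15% and 7.81% of all genes). All but 2 of these comparisons cross slides, as for the 10 genes.

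**Figure D5:**
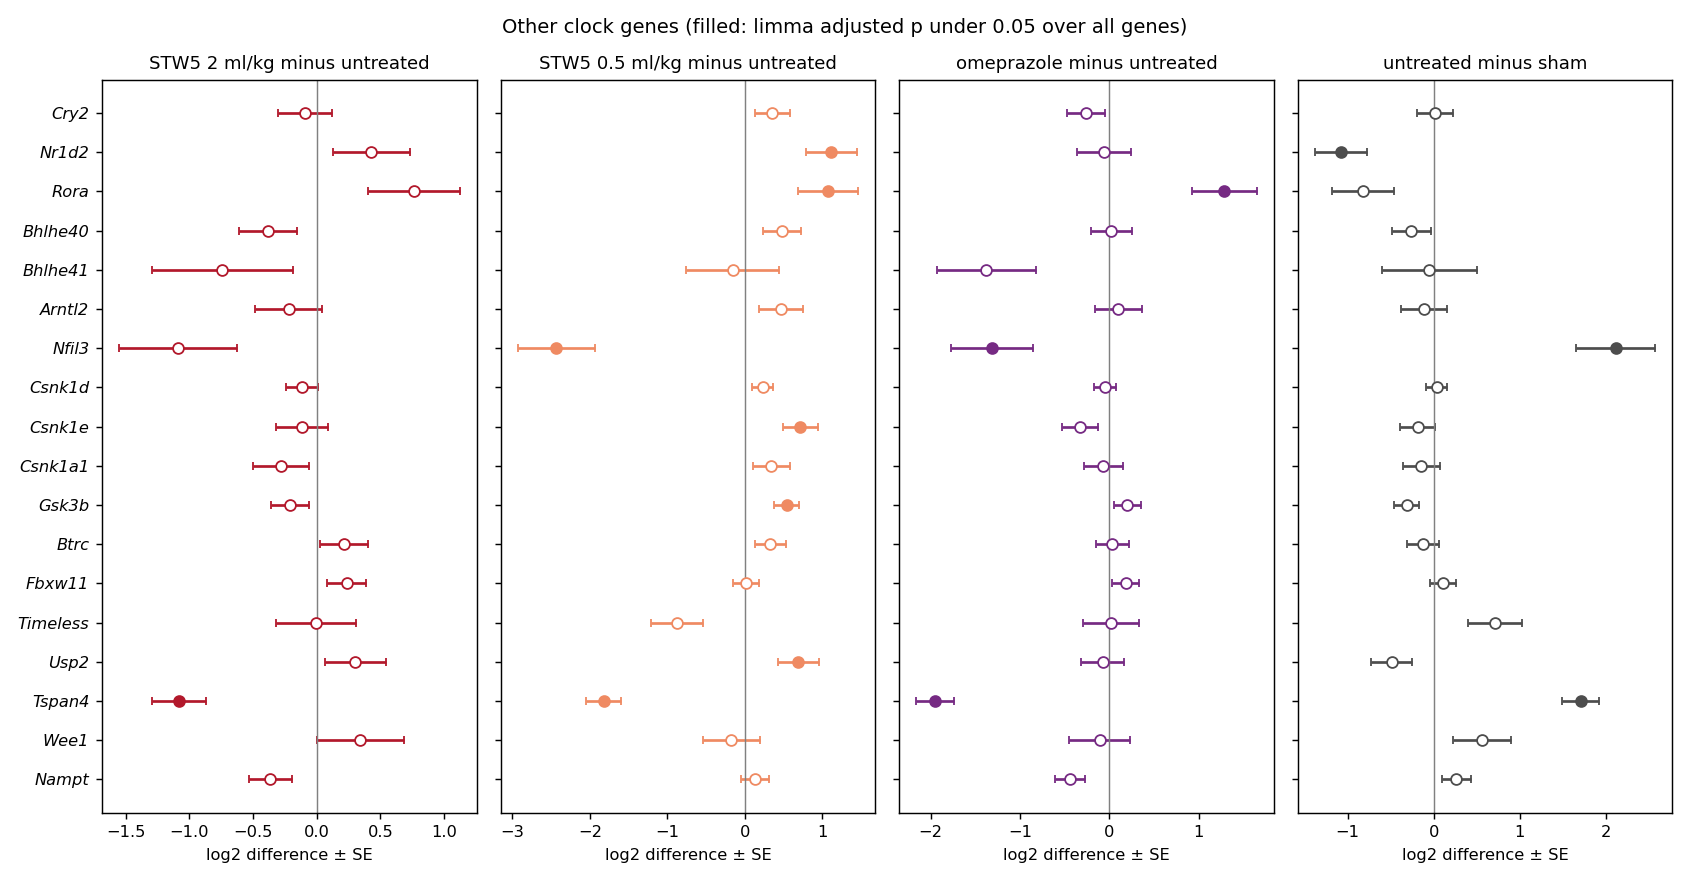
Log2 differences with standard errors (horizontal axes) of further clock genes in the same 4 comparisons, filled where limma's adjusted p over all genes was under 0.05. Nfil3 and Tspan4 lie right of 0 in untreated against sham (2.12 and 1.71) and left of 0 in all 3 drug groups against untreated.

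Of 5 listed genes that respond to glucocorticoids 2 were called higher in untreated against sham samples, where 32.8% of all genes were called. Fkbp5, which encodes a chaperone of the glucocorticoid receptor, and the kinase gene Sgk1 rose in untreated against sham samples by 2.90 ± 0.44 and 1.14 ± 0.24 (limma's adjusted p = 0.000345 and 0.00255). In the same comparison Tsc22d3, Klf9 and Zbtb16 were at -0.07, 0.06 and -0.18, and none of them was called. Fkbp5 fell by 1.75 ± 0.48 with STW5 0.5 ml/kg and by 1.90 ± 0.44 with omeprazole against untreated (adjusted p = 0.00934 and 0.00531), and was at -0.88 ± 0.44 with STW5 2 ml/kg. Sgk1 fell by 1.07 ± 0.24 with STW5 2 ml/kg, by 1.11 ± 0.26 with STW5 0.5 ml/kg and by 1.34 ± 0.24 with omeprazole (adjusted p = 0.0136, 0.00389 and 0.00106). Within groups Arntl deviated with Klf9 (r = 0.85), Zbtb16 (0.80), Tsc22d3 (0.72) and Fkbp5 (0.70), and less with Sgk1 (0.42). Without untreated replicate 3 these were 0.77, 0.71, 0.61, 0.55 and -0.05. Their part in the levels of the clock genes was not tested.

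Transcript levels of cell type markers differed between the groups as well. All 6 markers of macrophages and monocytes were called higher in untreated than in sham samples, and their summed level, on the linear scale relative to the 75th percentile, was 78.0 to 229 in untreated and 8.77 to 29.4 in sham samples. It was 32.8 to 65.1 with STW5 2 ml/kg, 8.29 to 21.1 with STW5 0.5 ml/kg and 12.9 to 26.7 with omeprazole. Markers of squamous epithelium and of striated muscle, which both belong to the rat oesophagus, were well above background on all 20 arrays. Of 7 squamous markers measured 3 were called lower in untreated than in sham samples, with sums of 346 to 982 in untreated and 551 to 1153 in sham samples. The squamous sum was 528 to 619 with STW5 2 ml/kg, 858 to 1409 with STW5 0.5 ml/kg and 834 to 1077 with omeprazole. Of 8 striated muscle markers 4 were lower in untreated samples, with sums of 341 to 915 in untreated and 793 to 1295 in sham samples. The striated muscle sum was 574 to 990 with STW5 2 ml/kg, 863 to 1209 with STW5 0.5 ml/kg and 684 to 1156 with omeprazole. In untreated against sham samples 4 of 4 neutrophil, 2 of 4 endothelial and 1 of 5 fibroblast markers were called higher and 2 of 5 smooth muscle markers lower. Of all genes 15% were called higher and 17.8% lower in this comparison, which holds for all the marker counts given here. Within groups Arntl deviated with the striated muscle sum (r = 0.54) and against the squamous sum (r = -0.57), whereas Dbp had r of -0.08 and 0.08 to these. With the smooth muscle sum Dbp had an r of 0.44 and Nr1d1 of 0.60. The part of tissue makeup in the clock gene differences was not tested.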

How the data were processed

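The deposited scanner files hold one-colour signal intensity per spot, background-subtracted and detrended by the authors with Agilent Feature Extraction 10.7.3.1, and flags for spots well above background, per the file headers. The array design refers to genome build rn4, per the file headers. The value table that the authors deposited holds each signal as a ratio to its array's median, as its values show, and served as an alternative. Here intensities were taken to log2 and each array's 75th percentile was subtracted. Outlier spots (263 to 377 per array) were left out, spots of a probe averaged, and probes named through RefSeq's GRCr8 table (30367 probes, of which 7207 had no gene). The filter kept probes for which 50% or more of the spots exceeded background well, by that flag, on 4 or more arrays, which left 13597 genes, each represented by its brightest probe. The mean of STW5 0.5 ml/kg replicates 1 and 2 entered as 1 sample.

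All 5 groups were fitted together with limma 3.58.1 in R 4.3.3, which gave 14 residual degrees of freedom and 2.86 prior ones. The p-values were adjusted by Benjamini-Hochberg over all genes, and genes were called under 0.05. The median standard error of a log2 difference was 0.245 for untreated against sham and 0.264 for STW5 0.5 ml/kg against untreated, and the number of arrays limits the precision. The fit was tested on simulated data.

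The 10 genes, the lists of further clock, glucocorticoid-responsive and cell type marker genes, and the alternatives were chosen with earlier results of these data known. Named are the 10 genes, further clock genes called in a comparison and, always, Cry2, Nr1d2, Ciart, Hlf, Nfil3, Bhlhe40 and Bhlhe41, the glucocorticoid-responsive genes, and the 6 genes with the highest and the 6 with the lowest r to Arntl and to Dbp over deviations from group means, among genes with an established symbol. The 24 listed genes of the clock included Cry2, Nr1d2, Rora, Rorb, Bhlhe40, Bhlhe41, Ciart, Arntl2, Hlf, Nfil3, Csnk1d, Csnk1e, Csnk1a1, Gsk3b, Fbxl21, Btrc, Fbxw11, Timeless, Usp2, Tspan4, Wee1 and Nampt, and the others, which the counts include, are not reported by name here. Replicate numbers were not taken to pair samples, since the labels tie no number to a litter or day. Deviations correlated above 0.1 in 19 of 40 same-numbered pairs of samples, against 31 of 120 with different numbers, which is a smaller share. The median r of these pairs was 0.08 and -0.01. What same-numbered samples share was not tested, and counts with the number as a block are given at the end. Alternatives changed the scaling, background correction, filter, probe, source of values, samples in the fit, array weights and replicate block, and left out each sample.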

Additional observations from a re-analysis of the deposited data

Results flagged for a closer look

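Among 40 sets of values tested, 1 per clock gene and group of 4 samples, 1 sample stood far from the others of its group by Dixon's ratio, and chance flags about 1 in 20. The Clock level of omeprazole replicate 3 was -1.47, while the other omeprazole samples lay between -1.26 and -1.22. The gap was 0.836 of the whole range of the group, which is narrow.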

How the results depend on the processing

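Of 50 differences of the 10 clock genes in 5 comparisons, none moved by more than the spread between replicates with quantile or median scaling, raised dim signals, no filter, array weights or only the 2 groups fitted. With normexp correction 7 moved, with the mean of a gene's probes 4, and with the deposited values 11. Under the value table Nr1d1 turned to -0.21 in STW5 0.5 ml/kg against untreated, where the STW5 columns are those of the other dose. The counts of further clock genes called changed as follows. Under the deposited value table the counts were 1, 8 and 3 in STW5 0.5 ml/kg against untreated, STW5 2 ml/kg against untreated and STW5 2 ml/kg against omeprazole, in place of 8, 1 and 0. With array weights 9 were called in untreated against sham in place of 4, 2 in STW5 2 ml/kg against untreated and 2 in STW5 2 ml/kg against omeprazole. With only the 2 groups fitted, which leaves fewer samples, the counts were 2 in untreated against sham, 3 in STW5 0.5 ml/kg against untreated, 0 in STW5 2 ml/kg against untreated (limma) and 1 in STW5 2 ml/kg against omeprazole. In the value table the STW5 columns are those of the other dose, and the counts 8 and 1 against untreated stand exchanged. What gave its count of 3, and the counts with array weights, was not tested. Leaving out 1 sample gave 3 to 7 in untreated against sham, 5 to 11 in STW5 0.5 ml/kg against untreated, 1 to 2 in STW5 2 ml/kg against untreated, 2 to 4 in omeprazole against untreated and 0 in STW5 2 ml/kg against omeprazole. With the replicate number as a block, over all 20 arrays, the counts in these comparisons were 4, 8, 1, 3 and 0, against 4, 9, 1, 3 and 0 over the same arrays without the block, so it moved no count by over 1.5 times. Per1, well above background on 12 of 20 arrays, is limited by its signal over background.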
